A study of Mus musculus with 2 samples.

Results

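The *Hox* genes examined here are the 39 of 28000 genes in the deposited counts whose symbol is *Hox*, a cluster letter from a to d and a number. They were chosen by this rule on the symbol. *Hox* genes encode homeodomain transcription factors that give cells their position along the body axis. They lie in 4 chromosomal clusters, HoxA to HoxD, in which genes of the same number in different clusters form a paralogue group, and low numbers are switched on early and reach far towards the head while high numbers are switched on later and stay nearer the tail. In skin, fibroblasts and neural crest derivatives of the trunk keep such a code, while the neural crest of the face lacks it.

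The study asked how loss of the histone chaperone HIRA affects the pigment lineage. Live tdTomato+ cells were sorted from trunk skin of E15.5 mouse embryos, from which heads, limbs and tails had been removed, and were counted with 3′ single-cell RNA sequencing. The WT library is TyrCre::Hira wt/wt:tdTomato and the KO library TyrCre::Hira fl/fl:tdTomato, on a mixed strain background close to C57BL/6J, with 1 library for each genotype. The *Tyr* promoter drove Cre, and its activity is not limited to pigment cells. The sorted cells include several cell types, and how each came into the sort was not tested. The WT library held 7073939 unique molecular identifiers (UMIs) in 1546 barcodes and the KO library 5049514 UMIs in 846 barcodes, and filters left 1540 and 828 cells. No barcode was shared, with a count of 0. *Hira*, the deleted gene, had 35 UMIs in WT melanoblast-like cells, a level of 13.8 CPM (UMIs scaled to 1e6 UMIs of the class). In KO it had 3 UMIs there, at 3.53 CPM, so that the log2 ratio of KO to WT came to -1.97 with a 95% interval from -4.31 to -0.30. In glial-like cells it had 18 and 9 UMIs, and in mesenchymal-like cells 8 and 16, with intervals of the ratio that included 0 in both. *Xist* had 16822 UMIs in the WT library and 23 in the KO library, and *Eif2s3y* 0 and 220, so that genotype and sex cannot be told apart in any ratio below. Intervals cover counting error only, and with 1 library for each genotype no difference between libraries was tested.

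Cells were grouped by clustering on 1984 variable genes, with the *Hox* genes left out, and each cluster was named by marker genes. The names therefore did not use the *Hox* counts. Melanoblast-like cells numbered 536 in WT and 139 in KO, glial-like cells 446 and 254, and mesenchymal-like cells 217 and 255. The 12 melanoblast markers summed to 6305 CPM in WT and 6016 CPM in KO melanoblast-like cells, with *Dct* highest in both, and *Tyrp1* and *Oca2* were at 0 in KO. Glial markers summed to 4699.6 CPM in WT glial-like cells and to 4298 CPM in KO. Mesenchymal markers summed to 21993 and 25101 CPM in mesenchymal-like cells. Possible doublets were kept. Markers of another class flagged 189 cells in the WT library and 181 in the KO library, and a doublet score 9 and 6. In the glial-like class, 155 of the 446 cells were flagged in WT and 130 of the 254 in KO. Among melanoblast-like cells, flags fell on 20 of 536 in WT but on 42 of 139 in KO. For mesenchymal-like cells the flagged counts were 14 in WT and 9 in KO. Removal of flagged cells is among the alternatives of the closing section. The mesenchymal-like class was made of different cells in the 2 libraries, because 172 of 217 WT cells lay in a cluster led by *Crabp1* and 124 of 255 KO cells in a cluster led by *Mfap4*.

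*Hox* transcripts were sparse, with 1073 UMIs or 152 CPM in WT cells and 1343 UMIs or 269 CPM in KO cells. At least 1 *Hox* UMI was present in 537 WT cells, 34.9%, and in 517 KO cells, 62.4%. These library totals mix classes whose shares of the cells differ, and the values by class are the ones read here. The WT library had 33 of the 39 genes and the KO library 32, and 30 genes were found in both. The 4 genes at 0 in both libraries were *Hoxa13*, *Hoxb1*, *Hoxc12* and *Hoxd12*. A further 10 genes, most of them from either end of the clusters, had 1 to 9 UMIs in all, among them *Hoxa11*, *Hoxb13*, *Hoxc11*, *Hoxc13*, *Hoxd11* and *Hoxd13*. The other 25 genes had 10 or more UMIs, and 9 of these had at least 100, namely *Hoxa7*, *Hoxb2*, *Hoxb7*, *Hoxb9*, *Hoxc6*, *Hoxc8*, *Hoxc9*, *Hoxc10* and *Hoxd8*. Apart from *Hoxb2*, the best-counted genes thus carried numbers from 6 to 10, those of the thoracic and lumbar trunk, and the genes that pattern the distal limb and tail were at or near 0 in skin from which limbs and tails had been removed.

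In the GENCODE M21 annotation of GRCm38 the 11 HoxA genes lie on chr6:52155590-52260880, minus strand, and the 10 HoxB genes on chr11:96194316-96368256, plus strand. The 9 HoxC genes lie on chr15:102921103-103036852 and the 9 HoxD genes on chr2:74668310-74765142, both on the plus strand. HoxB, at 174 kb, is the longest of the 4 and HoxD, at 96.8 kb, the shortest. Exons are shared on the same strand by *Hoxc5* with *Hoxc10* and by *Hoxd3* with *Hoxd4*, 4 of the 39 genes. A read in a shared exon could not be assigned to either of a pair with certainty. Whether any counted tags lay in these exons was not examined. With any gene counted, 9 genes share exons on the same strand and 10 have an exon on the opposite strand. A UMI tags the 3′ end of a transcript and was not scaled by length, and levels of different genes are compared here as counted tags only.

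The summed *Hox* level differed widely between classes. Mesenchymal-like cells had 458 *Hox* UMIs in WT, 427 CPM with an interval from 389 to 468, and 618 in KO, 411 CPM with an interval from 379 to 444. Glial-like cells had 385 UMIs or 236 CPM in WT and 323 UMIs or 270.4 CPM in KO. Melanoblast-like cells had 42 UMIs or 16.5 CPM in WT and 65 UMIs or 76.5 CPM in KO. The order mesenchymal, glial, melanoblast was the same in both libraries, with intervals apart between each pair of neighbours. Keratinocyte-like cells, few in WT, had 253 CPM from 21 UMIs in 12 WT cells and 267 CPM from 203 UMIs in 81 KO cells, which overlapped the glial-like level in each library. In adipocyte-like cells the level was 197 CPM for WT and 186 CPM for KO. In endothelial-like cells it was 378 CPM from 21 WT cells and 822 CPM from 8 KO cells, where 18 of the 42 UMIs came from 1 cell. Macrophage-like cells, of blood origin, had 23 *Hox* UMIs or 28.1 CPM in WT and 26 UMIs or 97.2 CPM in KO. They joined 2 clusters that differed in WT, with 74.9 CPM (43.6 to 120) in 50 cells of a *Plac8*-led cluster and 10.2 CPM (3.73 to 22.1) in 96 cells of a *Pf4*-led cluster, while in KO these had 127.4 and 76.1 CPM in 17 and 18 cells. The melanoblast-like level was thus near that of the *Pf4*-led cluster in each library. Mast-cell-like cells had 2 *Hox* UMIs in 92 WT cells, 6.73 CPM, and 0 in 3 KO cells.

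Among mesenchymal-, glial- and melanoblast-like cells, shares of cells gave the same order as the levels. A *Hox* UMI was present in 82.0% of WT and 84.3% of KO mesenchymal-like cells, at median depths of 4414 and 5346 UMIs. The shares were 51.6% and 60.6% in glial-like cells, at 3378.5 and 4208 UMIs, and 7.09% and 33.1% in melanoblast-like cells, at 4335 and 5654 UMIs. Macrophage-like cells had 8.90% with an interval from 4.83% to 14.7% in WT and 22.9% with an interval from 10.4% to 40.1% in KO, at 4850.5 and 6720 UMIs. Mast-cell-like cells had 2.17% in WT. Shares did not follow the levels in deeper classes, since 91.7% of WT and 74.1% of KO keratinocyte-like cells had a *Hox* UMI, at 7538 and 9113 UMIs, and 88.4% and 100% of adipocyte-like cells, at 9841 and 11494.5 UMIs. With each cell thinned to 2000 UMIs, the shares were 56.7% and 55.6% in mesenchymal-like cells (9 WT and 5 KO cells too shallow and left out) and 35.5% and 41.9% in glial-like cells (37 and 8 left out). They were 50% and 39.5% in keratinocyte-like cells (0 and 5 left out) and 37.2% and 50% in adipocyte-like cells (0 and 0 left out). Thinned melanoblast-like cells had 3.24% in WT (11 left out) and 12.2% in KO (0 left out), beside 3.68% (10 left out) and 11.4% (0 left out) in macrophage-like cells. Thinned WT mast-cell-like cells had 1.52%, from 1 of 66 cells (26 left out). The thinned share of WT melanoblast-like cells thus lay between those of the 2 blood classes of its library, and the KO share was close to that of macrophage-like cells. Macrophage-like cells held more mesenchymal marker UMIs than melanoblast-like cells did, 813 and 3005 CPM beside 235 and 771 CPM, so they are not a matched measure of background, and whether the melanoblast-like shares lie above background was not tested. Those of glial- and mesenchymal-like cells lay well above the shares of both blood classes.

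**Figure D1:**
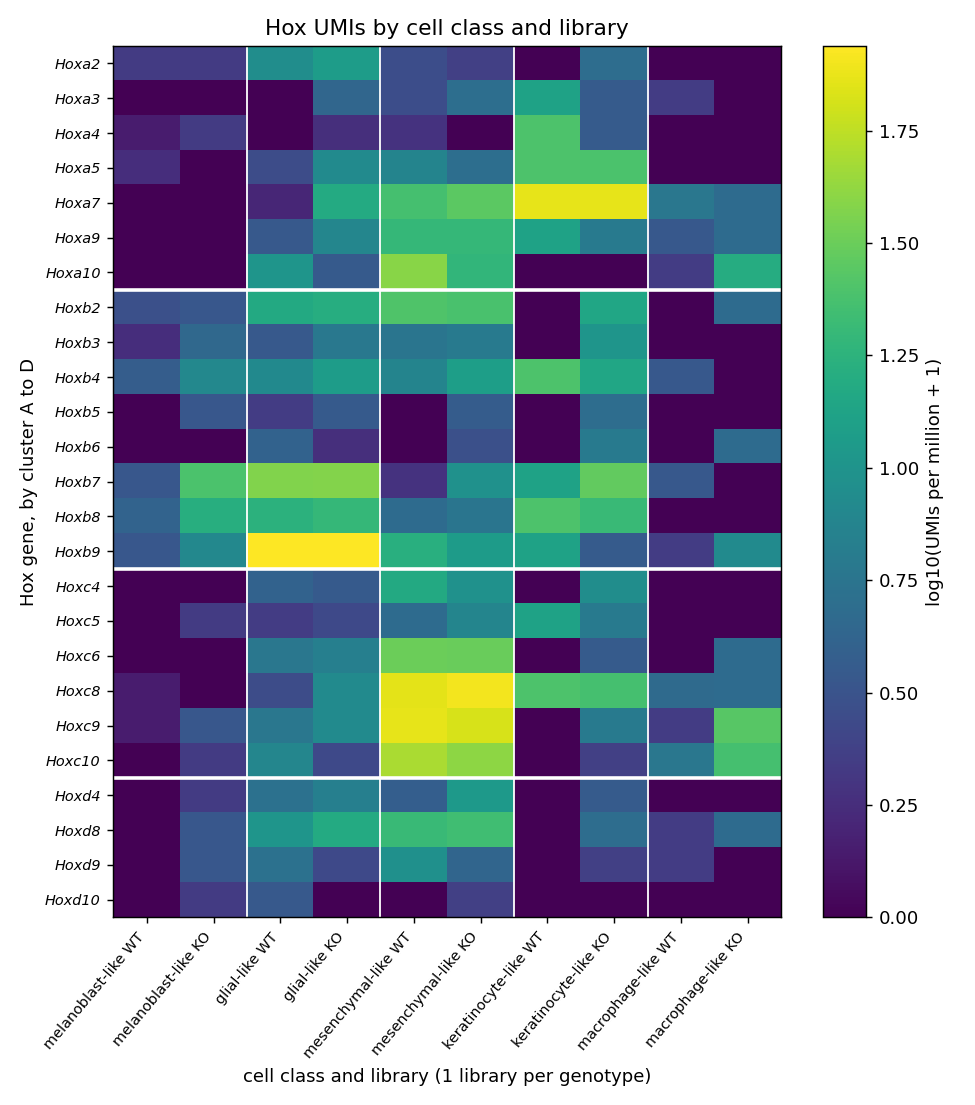
Level of the 25 *Hox* genes with at least 10 UMIs in 5 classes of each library, as log10 of CPM plus 1, with genes in order of cluster and number. Among these classes *Hoxb9* stands out in glial-like cells and *Hoxc8* to *Hoxc10* in mesenchymal-like cells, in both libraries, while *Hoxb8* is no higher in glial-like than in keratinocyte-like cells.

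Glial-like cells used mainly HoxB. Of their *Hox* UMIs, 70.9% in WT and 64.7% in KO came from HoxB genes, 167 and 175 CPM, against 13.1% and 16.7% in mesenchymal-like cells. The gene with the most tags was *Hoxb9*, a thoracic gene at chr11:96271457-96276595 (ENSMUSG00000020875), with 140 UMIs or 85.9 CPM in WT and 102 UMIs or 85.4 CPM in KO. *Hoxb7* followed with 36.2 CPM in WT and 36.8 CPM in KO. *Hoxb8* had 16.6 and 18.4 CPM. Of the genes with low numbers, *Hoxb2*, which patterns hindbrain segments and the crest that leaves them, had 14.1 and 15.1 CPM. *Hoxa2*, the selector gene of the second pharyngeal arch, had 7.97 CPM from 13 UMIs in WT and 10.9 CPM from 13 UMIs in KO. Each of these 5 genes had an interval of the ratio between libraries that included 0. Glial-like cells thus carried tags from both the head end and the trunk part of HoxB, in trunk skin.

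Mesenchymal-like cells used mainly HoxC, with 56.8% of their *Hox* UMIs in WT and 56.1% in KO, 243 and 231 CPM. *Hoxc8*, whose loss shifts the identity of thoracic vertebrae, had 76 UMIs or 70.9 CPM in WT and 119 UMIs or 79.1 CPM in KO. *Hoxc9*, which acts at thoracic levels, had 72.8 and 65.1 CPM. *Hoxc10*, a gene of lumbar levels, had 48.5 and 39.9 CPM. *Hoxc6* had 30.8 and 30.6 CPM. Outside HoxC, *Hoxa10* was highest in WT, with 38.3 CPM in WT and 17.9 CPM in KO and an interval of the ratio that did not include 0. *Hoxa7* stood at 22.4 CPM in WT beside 27.2 CPM in KO, *Hoxb2* 24.3 and 23.3 CPM, *Hoxd8* 19.6 and 21.3 CPM and *Hoxa9* 18.7 and 18.6 CPM. Each of these genes other than *Hoxa10*, 8 in all, had an interval of the ratio that included 0. The mean paralogue number of the *Hox* UMIs was 7.77 in WT and 7.42 in KO, next to 7.44 and 6.99 in glial-like cells, so the 2 classes were close in average number and differed in the cluster used.

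Within a library both classes share the free RNA of that library, and the direction of single genes between them could be set side by side across libraries. The libraries are separate samples for this comparison. Of 17 *Hox* genes with at least 10 UMIs over the 2 classes in each library, 14 had the same direction of glial over mesenchymal in WT and KO. *Hoxb7*, *Hoxb8* and *Hoxb9* were higher in glial-like cells in both libraries by intervals that did not include 0, with log2 ratios of 5.28 and 2.09 for *Hoxb7*, 2.15 and 1.99 for *Hoxb8* and 2.44 (1.71 to 3.26) and 3.01 (2.24 to 3.87) for *Hoxb9*. The 7 genes lower in both by intervals that did not include 0 were *Hoxa7*, *Hoxa9*, *Hoxa10*, *Hoxc6*, *Hoxc8*, *Hoxc9* and *Hoxc10*. *Hoxb2*, *Hoxc4* and *Hoxd8* were also lower in both and *Hoxa2* higher in both, each with an interval that included 0 in at least 1 library. For *Hoxc8* the ratios were -5.27 in WT and -3.39 in KO, for *Hoxc9* -3.89 and -3.11, for *Hoxc10* -2.85 and -4.57 and for *Hoxa10* -2.06 and -2.84. *Hoxa5*, *Hoxb4* and *Hoxd4* had opposite directions in the 2 libraries. The 9th paralogue group shows the split within 1 group of genes, since *Hoxb9* was the higher one in glial-like cells and *Hoxa9* and *Hoxc9* in mesenchymal-like cells.

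**Figure D2:**
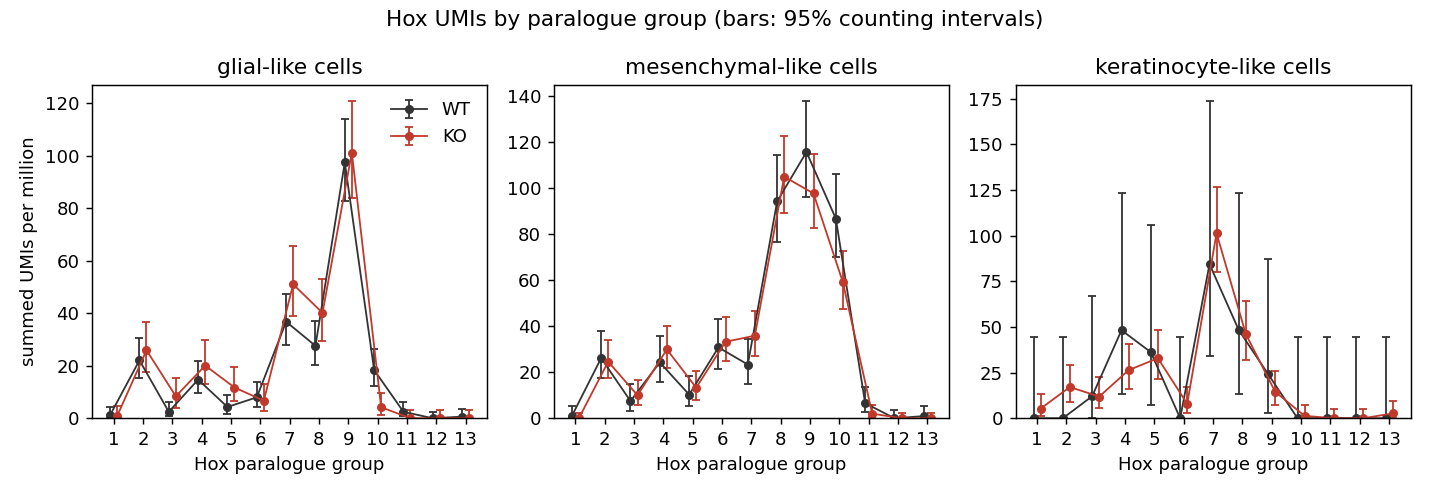
Summed CPM of each paralogue group, 1 to 13, in glial-, mesenchymal- and keratinocyte-like cells of each library, with 95% Poisson intervals as bars. Among the groups within a class, group 9 is the highest of glial-like cells (97.5 CPM in WT, 101 in KO) and group 7 the highest of keratinocyte-like cells (84.3 and 101 CPM). Groups 8 to 10 are high in mesenchymal-like cells.

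Keratinocyte-like cells had another composition, with HoxA at 57.1% of *Hox* UMIs in WT and 42.4% in KO. Groups 4 to 8 made up 85.7% and 80.3% of their *Hox* UMIs. *Hoxa7*, a thoracic gene, led with 6 UMIs or 72.3 CPM in WT and 55 UMIs or 72.3 CPM in KO, above mesenchymal-like cells by log2 ratios of 1.69 and 1.41. *Hoxa5* had 2 UMIs or 24.1 CPM in WT and 18 UMIs or 23.7 CPM in KO. *Hoxb7* had 1 and 22 UMIs, and the WT values of this class rest on 12 cells. *Hoxc9* and *Hoxc10* were lower than in mesenchymal-like cells in both libraries by their intervals. Endothelial-like cells used HoxD for 38.7% of *Hox* UMIs in WT and 64.3% in KO, and had 0 HoxC UMIs in both libraries, with intervals that reach 45.0 CPM in WT and 72.2 CPM in KO. The mean paralogue number of adipocyte-like cells, 4.90 in WT and 5.21 in KO, was below that of the mesenchymal-, glial- and keratinocyte-like cells. *Hoxa5*, which acts in lung and the cervical-thoracic trunk and was singled out after its values were seen, had 16 UMIs or 35.4 CPM in WT adipocyte-like cells and 0 in 8 KO cells, with an interval of the ratio that included 0.

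Between the libraries, the summed *Hox* level of melanoblast-like cells stood at 16.5 CPM in WT with an interval from 11.9 to 22.4 and at 76.5 CPM in KO with an interval from 59.0 to 97.5. On the log2 scale KO over WT came to 2.21, with an interval from 1.63 to 2.80, or 4.62-fold. The class was spread differently over its clusters in the 2 libraries. A *Pmel*-led cluster held 146 WT and 9 KO cells, at 11.5 CPM in WT and 51.8 CPM, from 2 UMIs, in KO. A *Pbk*-led one held 156 and 41 cells, at 17.9 and 64.1 CPM, and an *Mt2*-led one 234 and 89 cells, at 18.5 and 86.8 CPM. *Hox* UMIs were found in 38 of 536 WT cells and 46 of 139 KO cells. In KO, 31 cells had 1 *Hox* UMI, 12 had 2 and 3 had 3 or more, with at most 4 in a cell, and in WT 34 had 1, 4 had 2 and 0 had more. The KO tags were thus spread thinly over many cells. Macrophage-like cells, which are not a matched measure of background, showed a log2 ratio of 1.79 with an interval from 0.92 to 2.66 between the same libraries. This interval overlaps that of the melanoblast-like cells, and the difference between the classes was not tested.

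The 2 classes differed in which *Hox* genes made up these counts. HoxB genes gave 34 of 42 UMIs in WT and 52 of 65 in KO melanoblast-like cells, 81.0% and 80.0%, but 5 of 23 in WT and 4 of 26 in KO macrophage-like cells, 21.7% and 15.4%. *Hoxb7* and *Hoxb8* together had 33 UMIs in KO melanoblast-like cells, beside 2 UMIs of *Hoxc8* and *Hoxc9*. The same pairs had 0 and 8 UMIs in KO macrophage-like cells, and in all KO cells outside the melanoblast-like class 127 and 282. WT melanoblast-like cells had 14 and 2. *Hoxb7* was also set beside the leading genes of other classes, a choice made after the values were seen. KO glial-like cells had 102 UMIs of *Hoxb9* beside 44 of *Hoxb7*, and KO melanoblast-like cells 6 beside 20. KO keratinocyte-like cells had 55 UMIs of *Hoxa7* beside 22 of *Hoxb7*, and KO melanoblast-like cells 0 of *Hoxa7*. The source of the melanoblast-like UMIs was not tested.

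Gene by gene, *Hoxb7*, at chr11:96286623-96290162 (ENSMUSG00000038721), a trunk gene, had 6 UMIs or 2.36 CPM in WT melanoblast-like cells and 20 UMIs or 23.5 CPM in KO. Its log2 ratio was 3.32 with an interval from 1.95 to 4.92. Its neighbour *Hoxb8*, at chr11:96281905-96285315 (ENSMUSG00000056648), which acts in trunk neural tissue and blood progenitors, had 8 UMIs or 3.15 CPM in WT and 13 UMIs or 15.3 CPM in KO, with a log2 ratio of 2.28 and an interval from 0.90 to 3.76. Only these 2 genes had at least 20 UMIs in the class over both libraries, and the other 37 were not read against the fold. Both lay 2-fold or more higher in KO, where 3.82% of the 8141 genes with as many UMIs were 2-fold or more higher and 4.23% were 2-fold or more lower. Both reached the minimum only with their KO UMIs, since WT gave 6 and 8. Their place among the genes read thus depended on the library where they were high, and no conclusion is drawn from the count. With 2 genes read, it also says little about the rest of the set. With at least 10 UMIs *Hoxb4* and *Hoxb9* were read too, and all 4 were 2-fold or more higher, beside 5.95% of 9694 genes. All 4 had under 10 UMIs in WT and passed only with their KO UMIs, so no conclusion is drawn from this count either. *Hoxb4* and *Hoxb9*, singled out after their values were seen, had 2.76 and 7.06 CPM and 2.36 and 7.06 CPM, with intervals of the ratio that included 0. Summed over paralogue groups, groups 4 to 8 stood at 9.85 CPM in WT beside 54.1 CPM in KO, with a log2 ratio of 2.46, and groups 11 to 13 had 0 UMIs in both libraries. HoxD genes had 0 UMIs in WT and 6 in KO, with an interval of the log2 ratio that starts at 1.81. HoxC genes had 2 and 4 UMIs, a log2 ratio of 2.58 with an interval from -0.22 to 6.04.

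**Figure D3:**
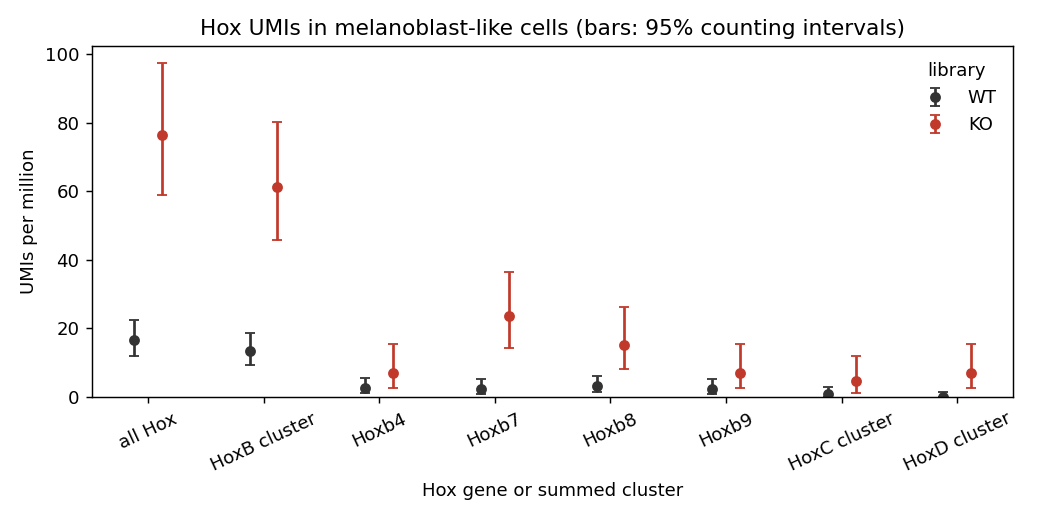
CPM in melanoblast-like cells of each library for all *Hox* genes, for HoxB, for *Hoxb4*, *Hoxb7*, *Hoxb8* and *Hoxb9*, and for HoxC and HoxD, with 95% Poisson intervals as bars. The KO bar is at 76.5 CPM for all *Hox* genes and at 23.5 CPM for *Hoxb7*, against 16.5 and 2.36 CPM in WT.

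Markers of several other classes were also higher in KO melanoblast-like cells, and those of others were lower. All 12 mesenchymal markers were found in both libraries, with sums of 235 CPM in WT, led by *Fbln1*, and 771 CPM in KO, led by *Col1a2*. Of 10 keratinocyte markers 9 were found in WT and 8 in KO, at 68.9 and 446 CPM with *Krt10* highest, *Trp63* at 0 in both and *Epcam* at 0 in KO. Of 9 erythroid markers 4 and 6 were found, at 78.4 and 1119.9 CPM with *Hbb-bs* highest. Neutrophil markers, 9 of 10 in WT and 8 of 10 in KO, summed to 39.4 and 222 CPM with *S100a8* highest. Mast cell markers, 5 and 4 of 9, went the other way, at 120.2 and 17.6 CPM with *Cma1* highest, *Tpsab1*, *Ms4a2*, *Fcer1a* and *Mrgprb1* at 0 in both and *Mcpt4* at 0 in KO. Macrophage markers, 11 of 11 in both, summed to 109 and 85.9 CPM with *Fcer1g* highest in WT and *Lyz2* in KO. Glial markers were lower too, 12 of 12 in WT and 11 of 12 in KO, at 368 and 262 CPM with *Fabp7* highest in WT and *Mbp* at 0 in KO. In macrophage-like cells, mesenchymal markers summed to 813 CPM in WT and 3005 CPM in KO. The part of these transcripts in the *Hox* difference was not tested. Among melanoblast-like cells with at most 2 glial marker UMIs, 406 WT cells had 25 *Hox* UMIs and 109 KO cells had 45, a log2 ratio of 2.41. Among those with at most 2 mesenchymal marker UMIs, 473 WT cells had 31 and only 29 KO cells were left, with 11, a log2 ratio of 2.45. Both of these groups were chosen after seeing the data.

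In glial-like cells the summed *Hox* level was 236 CPM in WT with an interval from 213 to 261 and 270.4 CPM in KO with an interval from 242 to 302. The log2 ratio was 0.20, with an interval from -0.02 to 0.41. Of the 7 genes with at least 20 UMIs, namely *Hoxa2*, *Hoxb2*, *Hoxb4*, *Hoxb7*, *Hoxb8*, *Hoxb9* and *Hoxd8*, 0 were 2-fold or more higher and 0 were 2-fold or more lower in KO, where 3.85% and 2.49% of 8590 genes were. This count depends on the minimum, since with at least 10 UMIs 17 genes were read, of which *Hoxa5*, *Hoxa7*, *Hoxa9*, *Hoxb3* and *Hoxc8* were 2-fold or more higher and *Hoxa10* and *Hoxc10* 2-fold or more lower, 5 and 2 genes, beside 6.35% and 4.03% of 10287 genes. For the 7 genes with at least 20 UMIs the median log2 ratio, with 1 CPM added, was 0.14, beside -0.01 over all genes. *Hoxb9* had a log2 ratio of -0.01 with an interval from -0.39 to 0.37, which lies within 2-fold in either direction. The HoxB sum was equally close, 167 and 175 CPM.

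HoxC had 23.3 and 26.8 CPM and HoxD 22.1 and 21.8 CPM, with intervals of the ratio that included 0. HoxA stood apart, with 38 UMIs or 23.3 CPM in WT and 56 UMIs or 46.9 CPM in KO, a log2 ratio of 1.01 with an interval from 0.39 to 1.64. Paralogue groups 4 to 8 had 91.4 and 129.7 CPM, a log2 ratio of 0.51 with an interval from 0.17 to 0.84. Group 9 had 97.5 and 101 CPM. The lumbar group 10 had 30 UMIs or 18.4 CPM in WT and 5 UMIs or 4.19 CPM in KO, a log2 ratio of -2.14 with an interval from -3.86 to -0.76. Groups 11 to 13 had 5 and 0 UMIs, with an interval of the ratio that included 0. The genes behind these sums, singled out after their values were seen, each had under 20 UMIs. *Hoxa7* had 1 UMI or 0.613 CPM in WT and 17 UMIs or 14.2 CPM in KO, a log2 ratio of 4.54 with an interval from 1.86 to 9.92. *Hoxa10*, a gene of lumbar levels and the uterus, had 15 UMIs or 9.20 CPM in WT and 3 UMIs or 2.51 CPM in KO, a log2 ratio of -1.87 with an interval from -4.30 to -0.05. *Hoxc10* had 11 and 2 UMIs, with an interval from -5.23 to 0.19.

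Much of the HoxA count of KO glial-like cells lay in 1 cluster. The glial-like cluster led by *Pou3f1*, a transcription factor of Schwann cell progress towards myelin, had 30 WT and 58 KO cells and a *Hox* level of 183 CPM in WT with an interval from 109 to 290 and 439 CPM in KO with an interval from 368 to 521. HoxA gave 24.8% of its *Hox* UMIs in KO, and it held 13 of the 17 KO UMIs of *Hoxa7*. In the whole glial-like class, the 5 cells with the most *Hox* UMIs held 48 of 323 in KO, with up to 16 in a cell. In WT the 5 highest cells held 24 of 385, with up to 7 in a cell. The other glial-like clusters had 193 to 279 CPM in WT and 171 to 241 CPM in KO. Without the *Pou3f1*-led cluster, an alternative chosen after seeing the data, the KO level was 213 CPM and the log2 ratio -0.17, so the direction of the glial-like sum rests on these cells. Keratinocyte markers summed to 51.0 CPM in WT and 519 CPM in KO in that cluster. In the other glial-like clusters they summed to 63.7 to 115 CPM in WT and 494 to 586 CPM in KO, so the KO value of the *Pou3f1*-led cluster lay within the range of the others. Adipocyte markers did set it apart. In the *Pou3f1*-led cluster 2 of 10 were found in WT, at 40.8 CPM with *Fabp4* highest, and 5 of 10 in KO, at 228 CPM with *Car3* highest and *Cidea*, *Cidec*, *Plin1*, *Retn* and *Cfd* at 0. The other KO glial-like clusters had 11.5 to 27.4 CPM of them. The 43 WT adipocyte-like cells had 43 HoxA UMIs, of which 9 were of *Hoxa7*. The 8 KO adipocyte-like cells had 5 HoxA UMIs and 0 of *Hoxa7*, a count that says little at so few cells. The part of adipocyte transcripts in the HoxA count of the *Pou3f1*-led cluster was not tested. In the whole glial-like class, 8 of 10 keratinocyte markers in WT and 10 of 10 in KO were found, at 85.3 and 528 CPM with *Krt10* highest and *Dsp* and *Epcam* at 0 in WT. Mesenchymal markers, 12 of 12 in both, summed to 2759 CPM in WT and 3737 CPM in KO with *Col1a2* highest. Their part in the *Hox* values was not tested.

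In mesenchymal-like cells the summed level was 427 CPM in WT beside 411 CPM in KO, with a log2 ratio of -0.06 and an interval from -0.23 to 0.12. Of the 12 genes with at least 20 UMIs, 0 were 2-fold or more higher in KO, beside 6.18% of 8135 genes, and 1 was 2-fold or more lower, beside 3.01%. With at least 10 UMIs 19 were read, with *Hoxb7* and *Hoxd4* higher and *Hoxa10* and *Hoxd9* lower, beside 8.62% and 4.56% of 10077 genes. The median log2 ratio of the 12 was -0.03, beside -0.00 over all genes. The total was thus level between libraries at this depth. The gene past the fold was *Hoxa10*, with 41 UMIs or 38.3 CPM in WT with an interval from 27.5 to 51.9 and 27 UMIs or 17.9 CPM in KO with an interval from 11.8 to 26.1. Its log2 ratio was -1.09, with an interval from -1.85 to -0.36. Group 10 as a whole had 86.8 and 59.1 CPM, a log2 ratio of -0.55 with an interval from -0.99 to -0.12. Group 9 had 116 and 97.7 CPM, and groups 4 to 8 had 183 and 217 CPM with a log2 ratio of 0.25 and an interval from -0.01 to 0.51. *Hoxb7*, with 1 UMI in WT and 13 in KO, had a log2 ratio of 3.21 with an interval from 0.48 to 8.62. *Hoxd4*, with 3 and 15 UMIs, had 1.83 with an interval from 0.01 to 4.26, and both were singled out after their values were seen.

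These ratios compare different mesenchymal-like cells in part. In the *Crabp1*-led cluster, with 172 WT and 102 KO cells, the *Hox* level was 438 CPM in WT and 411 CPM in KO, and *Hoxa10* had 41.9 and 19.1 CPM from 37 and 12 UMIs, a log2 ratio of -1.13 with an interval from -2.21 to -0.16. *Hoxc10* there had 54.3 and 60.5 CPM, and group 10 as a whole 96.2 and 79.6 CPM with a log2 ratio of -0.27 and an interval from -0.81 to 0.25. In the *Mfap4*-led cluster, with 24 WT and 124 KO cells, the level was 368 and 466 CPM, and *Hoxa10* had 2 UMIs or 20.4 CPM in WT and 14 UMIs or 21.7 CPM in KO. Group 10 had 2 UMIs or 20.4 CPM there in WT and 32 UMIs or 49.5 CPM in KO, with an interval of the log2 ratio from -0.69 to 4.38. In the *Mfap5*-led cluster, with 21 WT and 29 KO cells, the level was 388 CPM in WT and 256 CPM in KO, with intervals from 270 to 539 and from 195 to 330. *Hoxa10* had 2 and 1 UMIs there. Group 10 had 6 UMIs or 66.5 CPM in WT and 7 UMIs or 30.4 CPM in KO, with an interval of the log2 ratio from -2.93 to 0.72. By its interval *Hoxa10* was thus lower in KO in the *Crabp1*-led cluster, while the ratio of group 10 had an interval that included 0 in each of the 3. The mean paralogue number in the *Mfap4*-led cluster was 6.22 in WT and 7.47 in KO. Keratinocyte markers in mesenchymal-like cells, 6 of 10 in WT and 10 of 10 in KO, summed to 52.2 and 449.8 CPM with *Krt15*, *Trp63*, *Epcam* and *Perp* at 0 in WT, and their part was not tested.

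*Hox* genes were also compared between mesenchymal-like cells with and without a UMI of *Hoxc10*. *Hoxc10* was found in 39 of 217 WT and 44 of 255 KO mesenchymal-like cells. In WT, *Hoxa10* had 84.8 CPM in the *Hoxc10*-positive cells, from 19 UMIs, and 26.0 CPM in the other 178 cells, from 22 UMIs. In KO it had 35.4 CPM from 10 UMIs and 13.9 CPM from 17 UMIs. *Hoxa7* went the other way, with 13.4 CPM in positive and 24.8 CPM in other cells in WT, and 14.2 and 30.3 CPM in KO. *Hoxb4* had 0 and 8.26 CPM in WT and 3.54 and 13.1 CPM in KO. The mean paralogue number of all *Hox* UMIs other than *Hoxc10* was 7.91 in positive and 7.37 in other cells in WT, and 7.51 and 7.06 in KO. Positive cells were deeper, with median depths of 5643 and 4215 UMIs in WT and 6280 and 5230 in KO, which CPM scales for, and the values rest on few UMIs. Some other genes also kept 1 direction. *Hoxc9* was higher in positive cells, with 93.7 and 67.2 CPM in WT and 81.4 and 61.3 CPM in KO. *Hoxc8*, with 49.1 and 76.7 CPM in WT and 77.9 and 79.3 CPM in KO, was lower in them, as were *Hoxc4* and *Hoxd8*. Others changed direction, such as *Hoxc6*, with 26.8 and 31.8 CPM in WT but 46.0 and 26.99 CPM in KO. *Hoxb2* did too, with 26.8 and 23.6 CPM in WT but 17.7 and 24.5 CPM in KO. A split by *Hoxc4* instead gave mean paralogue numbers of 7.95 with and 7.89 without it in WT, and 6.66 and 7.55 in KO. The split also separates clusters in part. In WT, 48 of 52 UMIs of *Hoxc10* lay in the *Crabp1*-led cluster, which held 172 of the 217 cells, and 0 in the *Mfap4*-led one, with 24 cells. In KO, 38 of 60 lay in the *Crabp1*-led cluster, with 102 of the 255 cells, and 18 in the *Mfap4*-led one, with 124 cells. No interval was computed for these differences, and they were not tested.

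*Hox* proteins bind DNA with cofactors of the TALE family, the Pbx, Meis and Pknox proteins. Of 9 such genes, 5 had at least 20 UMIs in melanoblast-like cells, with 0 past 2-fold, beside 3.82% of all genes higher and 4.23% lower, and the sum was 88.6 CPM in WT and 107 CPM in KO. In glial-like cells 8 genes were read and 4 were 2-fold or more higher in KO, beside 3.85% of all genes, and 0 lower, beside 2.49%. The 4 were *Pbx3*, *Pbx4*, *Meis2* and *Meis3*, each with under 50 UMIs, and the sum of the list was 149.7 and 203 CPM. Each of the 4 reached the minimum only with its KO UMIs, so no conclusion is drawn from this count. Markers of other classes were also higher in KO glial-like cells, with the sums given above of 2759 and 3737 CPM for mesenchymal and 85.3 and 528 CPM for keratinocyte markers, and the *Pou3f1*-led cluster had 30 WT and 58 KO cells. Their part in the cofactor values was not tested. In mesenchymal-like cells 7 were read and 0 were past 2-fold, beside 6.18% of all genes higher and 3.01% lower. There *Meis2* had 69.98 and 108 CPM with a log2 ratio of 0.63 and an interval from 0.23 to 1.04. Over the cofactor genes read, the median log2 ratio was 0.54, 0.86 and 0.37 in the 3 classes, beside -0.01, -0.01 and -0.00 over all genes. The glial-like median includes the 4 genes that were read only through their KO UMIs.

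Of 13 listed non-coding transcripts of the clusters, 8 were in the counts. *Hoxb3os*, read from the strand opposite to *Hoxb2* and *Hoxb3*, was the one with at least 20 UMIs in melanoblast-like cells, with 7 UMIs or 2.76 CPM in WT and 19 UMIs or 22.4 CPM in KO, a log2 ratio of 3.02 with an interval from 1.71 to 4.51, where 3.82% of all genes were 2-fold or more higher and 4.23% lower. *Hoxb2* had 5 and 2 UMIs there and *Hoxb3* 2 and 3, with intervals of the ratio that included 0. In glial-like cells *Hoxb3os* had 20.9 and 21.8 CPM, *Hotairm1*, from the head end of HoxA, 15.3 and 21.8 CPM, and *Hoxd3os1* 23.3 and 16.7 CPM, with 0 of the 3 past 2-fold, beside 3.85% of all genes higher and 2.49% lower. In mesenchymal-like cells *Hoxd3os1* had 29.9 and 25.9 CPM. In melanoblast-like cells *Hoxb3os* reached the minimum only with its KO UMIs, since WT gave 7. With 1 and 3 transcripts read, these counts say little about the rest of the list.

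Polycomb proteins keep *Hox* genes silent and trithorax proteins keep them active. Of 17 Polycomb genes, 14 were read in melanoblast-like cells with 0 past 2-fold in either direction, and the sum was 699 CPM in WT and 671 CPM in KO. *Ezh2*, the H3K27 methyltransferase, had 124 and 116 CPM there. In glial-like cells 0 of 12 were past 2-fold and the sums were 734 and 734 CPM. In mesenchymal-like cells 1 of 13 was, *Bmi1*, with 17 and 8 UMIs and a log2 ratio of -1.58, where 3.01% of all genes were 2-fold or more lower. The shares of all genes past 2-fold in the other classes were 3.82% higher and 4.23% lower in melanoblast-like cells and 3.85% higher and 2.49% lower in glial-like cells. Of 10 trithorax genes and H3K27 demethylases in melanoblast-like cells, *Kmt2d* was higher in KO with a log2 ratio of 1.07, and *Kdm6a* lower with 58 and 4 UMIs and a log2 ratio of -2.28. *Kdm6a* is X-linked, and genotype and sex cannot be told apart for it. In glial-like cells 1 of 10, *Rbbp5*, was 2-fold or more higher, and in mesenchymal-like cells 0 of 9 were past 2-fold.

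Cdx factors, Gdf11 and retinoic acid set *Hox* expression along the axis earlier in development. Of 20 such genes, *Cdx1*, *Cdx2*, *Cdx4*, *Lin28a* and *Lin28b* had 0 UMIs in the 3 classes. In melanoblast-like cells 6 were read and 3 were 2-fold or more higher in KO, beside 3.82% of all genes, *Rarb*, *Rxra* and *Crabp1*, with log2 ratios of 1.13, 1.48 and 1.42. *Crabp1* is also 1 of the 12 mesenchymal markers, whose sum was 235 and 771 CPM in these cells, and their part in its ratio was not tested. In glial-like cells 0 of 7 were past 2-fold, beside 3.85% of all genes higher and 2.49% lower. *Crabp1*, a retinoic acid binding protein, had 1665 and 860.5 CPM in mesenchymal-like cells, a log2 ratio of -0.95. It leads the cluster that held 172 of 217 WT but 102 of 255 KO mesenchymal-like cells. Its ratio thus compares different cells in part, and the part of this shift was not tested. *Aldh1a2*, which makes retinoic acid, had 0 and 17 UMIs in mesenchymal-like cells, with an interval of the log2 ratio that starts at 1.56. *Cyp26a1*, which degrades retinoic acid, had 1 and 13 UMIs there. Both were singled out after their values were seen, and 15 of the 17 and all 13 KO UMIs lay in the *Mfap4*-led cluster, where the WT library had only 24 cells. Within that cluster neither ratio was apart from 0, since the interval starts at -0.88 for *Aldh1a2* and runs from -1.76 to 6.39 for *Cyp26a1*.

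Position is also read from factors outside the *Hox* clusters. Of 26 genes of limb, dorsoventral trunk and head identity, 7 were read in mesenchymal-like cells, with 1 higher and 2 lower in KO by 2-fold or more, beside 6.18% and 3.01% of all genes. *Pitx1*, the factor of hindlimb identity, had 0 UMIs in WT and 51 in KO, 33.9 CPM, with an interval of the log2 ratio that starts at 3.25. It was read through its KO UMIs alone, so its place in the count of higher genes was set by the minimum. Its UMIs lay in 34 of 255 KO cells, 13.3%, all in the *Mfap4*-led cluster, with 3 UMIs in all other KO classes together. Within that cluster the interval starts at 1.01, as it held 24 WT cells. The *Pitx1*-positive cells had 98 *Hox* UMIs with a mean paralogue number of 7.72, beside 7.37 in other KO mesenchymal-like cells, and 7 UMIs of *Hoxc10*. *Zic1*, of dorsal trunk, was lower in KO with 45 and 24 UMIs and a log2 ratio of -1.40. In the *Crabp1*-led cluster, which held most of its UMIs, it had 45.3 and 33.4 CPM, a log2 ratio of -0.44 with an interval from -1.27 to 0.36. In the *Mfap5*-led cluster it had 3 and 0 UMIs, with an interval that ends at -0.08 and so does not include 0. *Pax3*, of dermomyotome and crest, was lower with 40 and 14 UMIs and a log2 ratio of -2.00. In the *Crabp1*-led cluster it had 36.2 and 7.96 CPM, a log2 ratio of -2.19 with an interval from -3.90 to -0.82. In the *Mfap5*-led cluster it had 6 and 6 UMIs, with an interval from -3.26 to 0.55. In melanoblast- and glial-like cells 0 of 3 and 0 of 4 genes of this list were past 2-fold, beside 3.82% and 3.85% of all genes higher and 4.23% and 2.49% lower.

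The *Hoxb8* promoter is shown because *Hoxb8* and *Hoxb7* were the pair past 2-fold in melanoblast-like cells. RefSeq promoter entries, GRCm38.p6, matched 22 of the 39 genes, with 24 promoters, and the 250 bases before each start were searched on both strands. TGATNNAT, a motif bound by Hox proteins with Pbx, was in 4 of the 24 and in 7.68% of 32851 promoters. TTTATNG, a Cdx motif, was in 2 of the 24, those of *Hoxb8* and *Hoxd4*, and in 9.81% of all promoters. The *Hoxb8* promoter, chr11:96281655-96281904 on the plus strand, holds 1 match to the first and 3 to the second, in capitals. A match is a description of letters only.

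Hoxb8 promoter: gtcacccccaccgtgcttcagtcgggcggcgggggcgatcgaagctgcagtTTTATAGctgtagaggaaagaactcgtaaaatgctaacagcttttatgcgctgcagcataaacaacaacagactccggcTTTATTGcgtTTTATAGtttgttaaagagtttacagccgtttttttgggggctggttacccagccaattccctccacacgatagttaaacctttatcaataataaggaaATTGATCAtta

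The clusters also hold microRNA genes, some of them within the annotated span of a *Hox* gene. The mature sequences from RefSeq, GRCm38.p6, are shown because these families are known to target *Hox* transcripts, with the seed, bases 2 to 8, in capitals. miR-10a lies in HoxB at chr11:96317186-96317208 and miR-10b in HoxD at chr2:74726074-74726096, both on the plus strand, and they share a seed. miR-196a has copies in HoxB at chr11:96265187-96265208 and in HoxC at chr15:102973365-102973386, on the plus strand, and miR-196b lies in HoxA at chr6:52230129-52230150 on the minus strand, and these share another seed.

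miR-10a-5p: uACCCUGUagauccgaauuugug

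miR-10b-5p: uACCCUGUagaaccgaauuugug

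miR-196a-5p: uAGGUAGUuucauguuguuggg

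miR-196b-5p: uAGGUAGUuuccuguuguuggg

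Matches to the seed of 7 bases were looked for in the 3′ untranslated regions of GENCODE M21. For miR-196 they were in 9 of the 39 *Hox* genes, 23.1%, and in 6.09% of 20998 genes. *Hoxa7*, *Hoxb7* and *Hoxc8* were among them. For miR-10 they were in 4 of the 39, 10.3%, and in 12.4% of all genes. By pairing along the whole microRNA without gaps, *Hoxb8* paired with miR-196a-5p at 21 of 22 bases, at chr11:96284888-96284909 on the plus strand, and was the 1 gene of 20892 with as many pairs. The site of *Hoxb7* lies at chr11:96289784-96289805 on the plus strand and pairs at 14 bases, the seed included. The target sites of these 2 genes follow, with paired bases in capitals for *Hoxb8* and the seed match in capitals for *Hoxb7*.

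Hoxb8 site: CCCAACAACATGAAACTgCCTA

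Hoxb7 site: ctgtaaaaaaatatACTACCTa

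Mature microRNAs are not counted by this assay, and their levels were not analysed here. Set against the glial-, mesenchymal- and keratinocyte-like classes, *Hoxb7* had its highest CPM in glial-like cells, *Hoxc8* in mesenchymal-like cells and *Hoxa7* in keratinocyte-like cells, so genes with a seed match were found in all 3 compositions.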

How the data were processed

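Single-cell RNA sequencing of 1 WT and 1 KO library was used. The authors deposited each value as a count of UMIs per gene and barcode, made with Cell Ranger 2.2.0 and mm10 according to the submitters' processing notes, without normalization. Barcodes with under 100 genes, over 40000 UMIs or over 10% mitochondrial UMIs were removed (6 WT, 18 KO). Counts of genes in at least 3 cells were log-transformed after scaling each cell to 10000. From 2000 variable genes the *Hox*, list and sex-linked genes were taken out, and the 1984 others gave 30 principal components, 15 neighbours and 21 Leiden clusters (resolution 1, seed 0). Clusters were named from 13 lists of 10 to 12 markers, with at least 3 markers raised by 1 log2 unit with 10 CPM added and found in 10% of cells. The UMIs of a class were added up and expressed as CPM, with exact Poisson, conditional binomial and Clopper-Pearson 95% intervals. A gene was named in a class with at least 20 UMIs over both libraries, and from other lists when it was among the 3 highest or past 2-fold. A gene low in 1 library could thus pass this minimum through the other library. The members and lists were chosen with earlier results of these data known. Clustering was done in scanpy 1.11.5 with igraph 0.11.9 and anndata 0.12.19 under Python 3.11.15, intervals with scipy 1.17.1, tables with pandas 2.3.3 and numpy 2.4.6, and figures with matplotlib 3.10.9. Effects of other filters, clusterings and denominators are given in the closing section.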

Additional observations from a re-analysis of the deposited data

Results flagged for a closer look

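The summed *Hox* log2 ratio of KO to WT was 2.21 in melanoblast-like cells and 0.20 in glial-like cells but -0.058 in mesenchymal-like cells, values listed because their signs are not all the same. The intervals of the glial- and mesenchymal-like values, -0.02 to 0.41 and -0.23 to 0.12, include 0 and do not show opposite directions, and the difference between classes was not tested. The barcodes removed by the filters, which no comparison used, held 6 *Hox* UMIs in the KO library, above the limit of 3 counts that a count of 0 allows.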

How the results depend on the processing

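The *Hox* ratio of melanoblast-like cells ran from 1.90 to 2.45 over 13 alternatives, with 1 direction in all of them. That of glial-like cells ran from -0.17 to 0.30, with the direction kept in 11 of 12 alternatives. That of mesenchymal-like cells ran from -0.12 to 0.03, with the direction kept in 10 of 11. With cells thinned to 2000 UMIs, shares of cells with a *Hox* UMI were 3.24% (WT) and 12.2% (KO) in melanoblast-like, 35.5% and 41.9% in glial-like and 56.7% and 55.6% in mesenchymal-like cells. Without the most abundant *Hox* gene, levels were 52.9 CPM in KO melanoblast-like, 150.3 and 185 CPM in glial-like and 356 and 332 CPM in mesenchymal-like cells, and the mean paralogue number of glial-like cells was 6.54 and 6.06. Without the *Pou3f1*-led cluster the glial-like ratio was -0.17 and the KO level 213 CPM. With clusters weighted equally, the WT mesenchymal-like mean paralogue number was 7.05. The count of *Hox* genes past 2-fold in melanoblast-like cells, 2 as reported, was 0 with at least 500 genes per cell, with cells holding markers of another class removed, with thinned cells, with a minimum of 50 UMIs, and with at most 2 glial or mesenchymal marker UMIs. The genes then read were fewer, while the log2 ratio ran from 3.25 to 4.50 for *Hoxb7* and from 1.68 to 3.36 for *Hoxb8* over 10 alternatives. With a minimum of 10 UMIs it was 4 in melanoblast-like cells, 7 in glial-like cells (0 as reported) and 4 in mesenchymal-like cells (1 as reported), and it was 2 in mesenchymal-like cells with the mean over cells. Among 179 ratios of single genes, 178 moved by less than their interval, and *Hoxc9* in mesenchymal-like cells moved to 0.43 with thinned cells. The cause of these shifts was not tested, apart from the number of genes read at other minimums. The restrictions on glial and on mesenchymal marker UMIs, the removal of the 5 cells with the most *Hox* UMIs and the removal of the *Pou3f1*-led cluster were 4 alternatives chosen after seeing the data. No paired analysis was possible because each group has 1 library. With 42 and 65 *Hox* UMIs, single genes in melanoblast-like cells are limited by depth, and intervals cover counting error only, not differences between embryos. With at least 500 genes per cell, 56 of the 139 KO melanoblast-like cells were still named so, and the other 83 were not removed but fell in an unnamed cluster led by *Hba-a1*.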
